A study of Mus musculus with 4 samples.

Results

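The cells described here were cycling T cells of the mouse liver: cells that carried T cell receptor complex transcripts together with transcripts of Mki67 and Top2a, which accumulate in cells that are replicating their DNA or dividing. A cell was counted when it had at least 2 UMIs (unique molecular identifiers, 1 per captured mRNA molecule) over Cd3d, Cd3e and Cd3g and at least 2 over Mki67 and Top2a. It also had no UMI of the B cell gene Cd79a or the endothelial gene Stab2 and fewer than 5 UMIs of the macrophage genes C1qa, C1qb and C1qc. The cells were thus chosen by their raw counts of these genes. By this rule 474 cells were found among 17171 T cells and 82905 cells in all. The other 15822 T cells with no Mki67 or Top2a UMI are called non-cycling below, and the remaining 875 had exactly 1 such UMI. Because Mki67, Top2a and the Cd3 genes chose the cells, their values here are a description of the choice.

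The cells came from 4 single-cell RNA-seq libraries (10x Genomics 5′ chemistry) of non-parenchymal liver cells of male C57BL/6J mice, which were 8 weeks old when the diets began. Of these, 2 libraries came from mice kept on regular chow and 2 from mice on the FAT-MASH regimen (Fibrosis and Tumor model of metabolic dysfunction-associated steatohepatitis). That regimen joined a Western diet rich in fat, sucrose and cholesterol with fructose and glucose in the drinking water and a weekly low-dose injection of carbon tetrachloride, a liver toxin. Each diet was sampled at 12 and at 24 weeks, with 1 library for each combination, and all livers were kept on ice overnight, digested with collagenase and DNase and enriched on a Percoll gradient. The labels do not give the number of mice behind a library. With 1 library a group no test between groups was possible, and no p-value is given. The 95% intervals below are exact (Clopper-Pearson for shares, conditional binomial for ratios) and cover counting error only. A difference beyond them is at most one between these libraries. The intervals of gene ratios treat UMIs of the same cell as independent. Where few cells hold most of a gene's UMIs, they do not cover which cells were captured.

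A T cell that divides first copies its DNA in S phase, using the MCM helicase, the sliding clamp Pcna and enzymes such as Rrm2 that make deoxynucleotides, and at the same time makes new histones. It then builds up the mitotic kinase Cdk1 with its cyclins, chromosome passengers such as Birc5 and Cdca8, and the ubiquitin ligase subunit Ube2c that ends mitosis. The liver holds several kinds of T cell that can do this. Conventional CD8 T cells carry the co-receptor chain Cd8b1, conventional helper T cells carry Cd4, and regulatory T cells carry the transcription factor Foxp3. Innate-like T cells such as NKT cells, which are abundant in the mouse liver, depend on the transcription factor Zbtb16 (PLZF), and gamma-delta T cells carry the receptor constant segment Trdc.

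The genes that peak in mitosis and those that peak in S phase are controlled through different promoter sequences, so 5 promoters are shown. Mki67 and Top2a were used by the rule, Pclaf and Cdk1 were among the strongest values, and Mcm6 was added as an example of a replication gene. Each is 300 bases long, 250 before and 50 after the gene's start, taken from RefSeq on GRCm38.p6 and written 5′ to 3′ on the gene's strand. Capitals mark the motifs searched on both strands: TTTGAA (or TTCAAA), the CHR element of mitotic genes, CCAAT (or ATTGG), the CCAAT box, and TTTCCCGC (or GCGGGAAA) and TTTGGCGC (or GCGCCAAA), both E2F sites. Mki67 encodes a protein that coats mitotic chromosomes, Top2a the topoisomerase that untangles them, and Cdk1 the mitotic kinase. Pclaf encodes a partner of the Pcna clamp, and Mcm6 a subunit of the replicative helicase.
Mki67, chr7:135716330-135716629 (minus strand): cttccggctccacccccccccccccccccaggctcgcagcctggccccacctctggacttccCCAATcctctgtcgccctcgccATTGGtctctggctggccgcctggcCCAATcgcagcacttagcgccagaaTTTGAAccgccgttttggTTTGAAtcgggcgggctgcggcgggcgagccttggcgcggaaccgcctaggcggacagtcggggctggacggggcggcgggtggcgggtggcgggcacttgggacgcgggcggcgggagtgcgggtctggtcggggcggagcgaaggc
Top2a, chr11:99024140-99024439 (minus strand): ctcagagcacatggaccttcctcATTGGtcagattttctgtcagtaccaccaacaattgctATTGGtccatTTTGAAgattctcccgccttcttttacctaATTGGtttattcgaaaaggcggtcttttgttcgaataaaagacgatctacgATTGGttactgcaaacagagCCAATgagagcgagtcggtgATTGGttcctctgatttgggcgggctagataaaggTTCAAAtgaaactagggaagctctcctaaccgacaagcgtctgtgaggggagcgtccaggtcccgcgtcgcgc
Cdk1, chr10:69352863-69353162 (minus strand): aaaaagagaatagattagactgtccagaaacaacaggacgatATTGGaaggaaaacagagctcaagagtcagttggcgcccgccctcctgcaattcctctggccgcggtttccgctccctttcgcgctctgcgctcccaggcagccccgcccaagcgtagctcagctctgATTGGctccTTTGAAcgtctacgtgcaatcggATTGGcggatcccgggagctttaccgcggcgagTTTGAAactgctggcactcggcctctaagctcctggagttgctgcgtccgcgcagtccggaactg
Pclaf, chr9:65890073-65890372 (plus strand): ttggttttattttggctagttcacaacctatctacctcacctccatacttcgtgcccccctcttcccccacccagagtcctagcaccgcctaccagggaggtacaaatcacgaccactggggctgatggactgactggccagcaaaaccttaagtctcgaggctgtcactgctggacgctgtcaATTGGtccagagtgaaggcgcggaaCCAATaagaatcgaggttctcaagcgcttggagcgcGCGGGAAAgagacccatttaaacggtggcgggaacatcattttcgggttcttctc
Mcm6, chr1:128359656-128359955 (minus strand): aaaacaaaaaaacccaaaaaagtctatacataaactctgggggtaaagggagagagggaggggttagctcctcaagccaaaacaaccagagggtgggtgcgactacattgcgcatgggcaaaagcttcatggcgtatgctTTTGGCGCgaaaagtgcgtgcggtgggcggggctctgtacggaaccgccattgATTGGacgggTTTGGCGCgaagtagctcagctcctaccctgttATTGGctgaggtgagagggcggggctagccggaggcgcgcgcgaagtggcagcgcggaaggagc

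The Mki67, Top2a and Cdk1 windows each held 2 TTTGAA matches and at least 3 CCAAT matches and no match to either E2F sequence. The Pclaf window held 1 TTTCCCGC match and the Mcm6 window 2 TTTGGCGC matches, and neither held TTTGAA. Other genes with strong values were mixed. The Cdca8 and Prc1 windows held TTTGAA and no E2F match. The Rrm2 and Clspn windows held neither, and the Ncapg2 window held 1 TTTGAA and 2 TTTCCCGC matches. Over the fixed gene lists the mitosis and S phase genes also differed. TTTGAA was found in 32 of the 43 promoters available for 50 genes of G2 and mitosis (74.4%) and in 5 of the 32 available for 45 genes of G1/S and S phase (15.6%), against 18.1% of all 27025 promoters. The CCAAT letters were found in 34 of 43 (79.1%) and 21 of 32 (65.6%), against 37.9% of all. TTTCCCGC was in 0 of 43 and 6 of 32 (18.8%), against 1.11% of all, and TTTGGCGC in 1 of 43 (2.33%) and 5 of 32 (15.6%), against 0.537%. A match states only that these letters lie in the window.

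Most of the markers given next were used by the rule itself, so their values describe the choice and are no support for the label. Cd3e, a signalling chain of the T cell receptor complex, had a UMI in 104 of 110 cycling T cells in the 12-week chow library, 86 of 95 in 12-week MASH, 116 of 127 in 24-week chow and 135 of 142 in 24-week MASH. Mki67 was seen in 101, 70, 114 and 126 of these cells and Top2a in 96, 79, 111 and 116. Rag1 and Rag2, the recombinases of immature thymocytes, had 0 UMIs in all 4 libraries, while Dntt, another thymocyte gene, had a UMI in 2, 1, 4 and 3 cells. Cd79a and Stab2 were 0 by the rule.

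At 12 weeks, 18436 cells were kept from chow and 17225 from MASH, and at 24 weeks 27291 and 19953. Their median depths were 2096, 3304, 2356 and 3464 UMIs in that order, which is used for every run of 4 values below. The median MASH cell therefore held more UMIs than the median chow cell at both weeks. Cycling T cells were deeper than the T cells around them, at a median of 7734.5, 6944, 7997 and 9600 UMIs where non-cycling T cells had 2686, 3720, 2864 and 3679.5. Summed over cells they gave 958717, 924155, 1194355 and 1627669 UMIs, so 1 UMI stood for 0.614 to 1.08 CPM (a gene's UMIs scaled to the same total in every group of cells, the unit of the levels below). No cell barcode was shared among the cycling T cells of 3 libraries, while the barcodes of the 12-week MASH library could not be compared.

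Some cycling T cells also carried transcripts of other liver cells. At least 10 UMIs of 1 marker list of another cell type were present in 20, 27, 34 and 55 of them, which was 18.2%, 28.4%, 26.8% and 38.7%, against 11.8%, 15.2%, 14.2% and 17.4% of non-cycling T cells. These cells were deep, with median UMIs of 12514, 16946, 11000 and 15821 against 6853.5, 5459, 6737 and 6671 in the other cycling T cells. The doublet caller Scrublet marked 20%, 11.1%, 38.2% and 36.4% of them and 5.56%, 0%, 2.15% and 0% of the rest. The dendritic cell list, which includes Ccr9 and Bst2 that T cells also express, was carried by 14, 23, 26 and 44 cells. The monocyte and macrophage list was carried by 3, 15, 9 and 27 cells, the hepatocyte list by 3, 3, 7 and 15, the cholangiocyte list by 0, 1, 0 and 10 and the neutrophil list by 0, 2, 3 and 6. These 5 lists were thus carried by more cells in MASH than in chow, or by equal numbers, at each week. The remaining lists were mixed. The endothelial list was carried by 2, 0, 2 and 3 cells, the erythroid list by 4, 1, 0 and 1 and the B cell list by 0, 0, 3 and 0. For plasma cells the numbers were 0, 1, 1 and 2, for stellate cells and fibroblasts 0, 2, 0 and 0, and for basophils and mast cells 1, 2, 1 and 2. The cycling shares and some gene values below are therefore also given without these cells, a choice made after the data were seen.

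The first comparison asked what share of T cells was cycling. At 12 weeks it was 2.71% in chow (95% interval 2.23 to 3.26) and 2.95% in MASH (2.39 to 3.60). At 24 weeks it was 2.24% in chow (1.87 to 2.66) and 3.36% in MASH (2.84 to 3.95). The MASH to chow ratio was 1.09 at 12 weeks (0.818 to 1.44) and 1.5 at 24 weeks (1.17 to 1.92), so the interval excluded 1 only at 24 weeks. The rule counts UMIs, and depth moved with diet. With T cells of at least 2000 UMIs thinned to 2000, the shares were 2.17%, 1.78%, 1.55% and 1.76%, in the same order. The ratios were 0.820 (0.561 to 1.19) and 1.14 (0.798 to 1.62). Cells below the chosen depth were left out, here and wherever thinning is named below. At 2000 UMIs these were 874 of 4055, 296 of 3219, 1164 of 5670 and 544 of 4227 T cells, a larger part in chow. Without the cells carrying other markers the shares were 2.52%, 2.53%, 1.92% and 2.52% and the ratios 1.00 (0.720 to 1.39) and 1.31 (0.968 to 1.78). A difference in the cycling share between diets was not detectable at equal depth. The 24-week chow library was also uneven within itself. Its cells carried hashtag antibodies, whose meaning the labels leave out. T cells with a single hashtag cycled at 2.67% for hashtags 1 to 4 and at 1.35% for hashtags 5 to 8. Set against all T cells of 24-week MASH, this gave ratios of 1.26 (0.914 to 1.76) and 2.50 (1.67 to 3.86). In these and all later hashtag ratios only the chow side was limited to single-hashtag cells. In 24-week MASH, 88 of 3228 single-hashtag T cells cycled, against 142 of 4227 of all T cells.

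**Figure D1:**
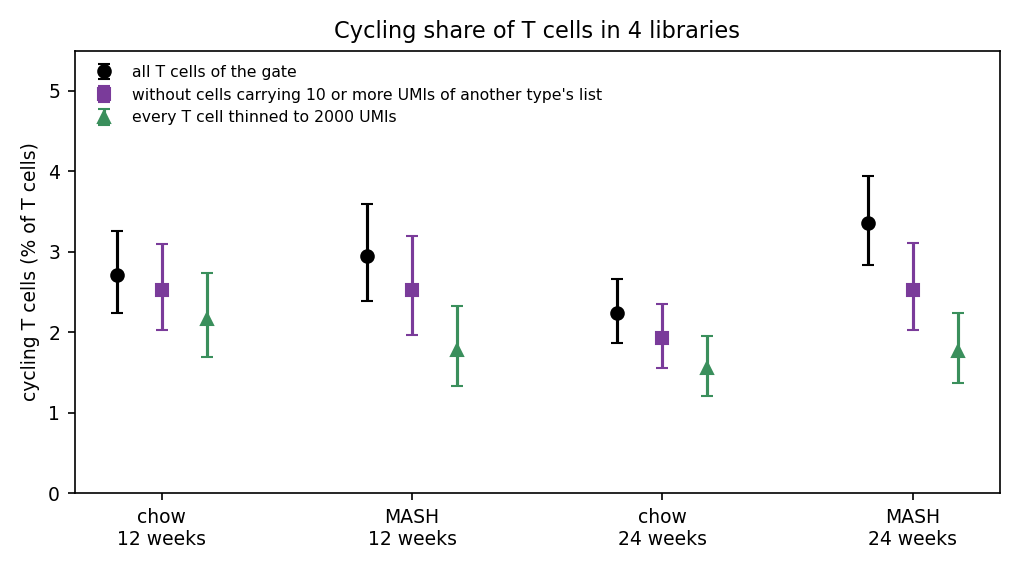
Share of T cells that were cycling (%, y axis) in each library (x axis). Values are for all T cells, without cells carrying at least 10 UMIs of another cell type's list, and after thinning to 2000 UMIs. Thinning covered only T cells with at least 2000 UMIs. Bars are exact 95% counting intervals. The 24-week MASH library is highest among all T cells at 3.36%, and after thinning the 4 libraries lie between 1.55% and 2.17%.

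T cells made up 29.0%, 22.4%, 31.6% and 25.7% of all cells past the Mki67 and Top2a threshold in the 4 libraries. Among B cells, taken as cells with at least 2 Cd79a UMIs and no Cd3 UMI, 0.802%, 1.03%, 0.740% and 0.971% passed it, at median depths of 1725, 2609, 2001 and 2704 UMIs. The share of T cells past the threshold was higher than this in every library.

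A larger part of the cells lay near the threshold in MASH. Exactly 2 UMIs of Mki67 and Top2a were found in 21, 40, 27 and 42 cells, exactly 3 in 11, 10, 11 and 21, and 4 or more in 78, 45, 89 and 79. Cells with 2 or 3 UMIs were thus 29.1%, 52.6%, 29.9% and 44.4% of the cycling T cells. Just outside the threshold, 128, 288, 188 and 271 T cells had 1 UMI. The summed level of the S phase and mitosis lists was 18387, 15377, 17211 and 15469 CPM in cells with 4 or more, 4431, 3917, 4503 and 3003 CPM in cells with 2, and 1936, 1892, 1755 and 1642 CPM in cells with none. In cells with 3 it was 7702.5, 1906, 9449 and 5583 CPM, so that the 10 such cells of 12-week MASH summed to the level of cells with none. Among these 10, 1 cell held 48749 UMIs, where their median was 5435.5. Summed levels weigh deep cells most. The median cell with 2 UMIs held 9, 10, 13 and 11 phase-list UMIs and the median cell with 3 held 66, 19, 54 and 62. The median cell with none held 5, 7, 5 and 6, and the median cell with 4 or more 160.5, 188, 158 and 173. By the median, the cells with 3 in 12-week MASH thus lay above those with none. Counting only cells with 4 or more gave shares of 1.92%, 1.40%, 1.57% and 1.87%.

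Most cycling T cells held more UMIs of the G2 and mitosis list than of the G1/S and S phase list. This was so in 68.2% of cells in 12-week chow, 68.4% in 12-week MASH, 66.1% in 24-week chow and 65.5% in 24-week MASH, and the interval of each library held the other values (58.1 to 77.6 at the widest, in 12-week MASH). The S phase list summed to 4794, 3538, 5106 and 3497 CPM, against 957, 865, 885 and 841 CPM in non-cycling T cells. The mitosis list summed to 10665, 7547, 9839 and 8055 CPM, against 979, 1027, 869 and 801. Both lists were lower in the MASH libraries than in chow of the same week, and the MASH libraries also held more cells near the threshold. The part of those cells in the lower sums was not tested.

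**Figure D2:**
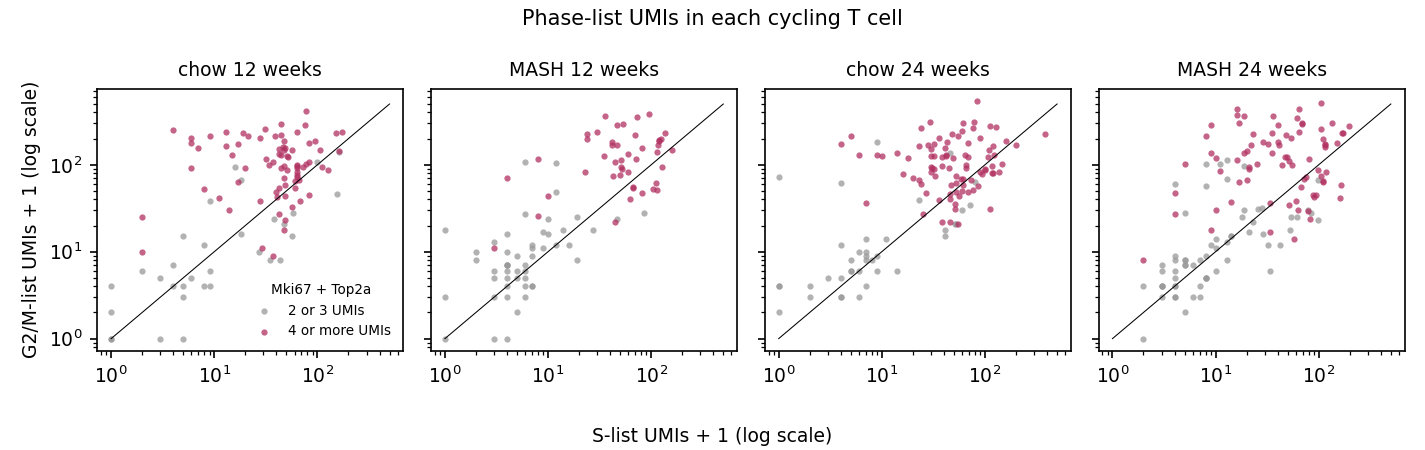
Each point is 1 cycling T cell, with UMIs of the G1/S and S phase list (x axis, plus 1, log scale) and of the G2 and mitosis list (y axis, plus 1, log scale), 1 panel per library. The line marks equal counts, grey points are cells with 2 or 3 Mki67 and Top2a UMIs and red points those with 4 or more. Between 65.5% and 68.4% of points lie above the line, and grey points lie mostly at low counts.

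The level of every gene in the cycling cells against the non-cycling ones was fixed in part by the rule, so these values describe the cells and are no test. Of 5106 genes with enough UMIs in all 4 libraries, 219 (4.29%) were at least 2-fold higher in cycling T cells in each library and 5 (0.0979%) at least 2-fold lower. Among genes of G1/S and S phase, 33 of 45 list members could be compared and 29 were higher. Among those of G2 and mitosis all 19 of 50 that could be compared were higher, and 7 of 8 histone genes (12 listed) were. Members that could not be compared were too low in non-cycling cells, so the counts describe the rest. With cells of at least 2000 UMIs thinned to 2000, 48 genes were higher and 1 lower.

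Pclaf stood furthest apart. Its level was 682 CPM in cycling T cells of 12-week chow, 540 in 12-week MASH, 733 in 24-week chow and 433 in 24-week MASH, against 2.36, 2.20, 1.36 and 1.12 CPM in non-cycling T cells. Cycling cells were thus 289, 246, 539 and 385 times higher. Cdk1 was at 143, 122, 143 and 131 CPM against 1.85, 1.73, 1.58 and 2.19. Rrm2, the ribonucleotide reductase subunit, was 73.1, 80.7, 145 and 76.0 times higher and Cdca8, a chromosome passenger subunit, 79.4, 40.3, 124 and 91.5 times. The linker histone gene Hist1h1b was 73.6, 80.0, 72.0 and 62.5 times higher and Hist1h2ae, whose reads may be shared with near-identical histone copies, 56.0, 54.3, 89.5 and 53.5 times. Stmn1, a microtubule regulator, and Prc1, which bundles the spindle midzone, were between 29.9 and 71.3 times higher, and Clspn and Ncapg2 completed the 10 highest.

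The genes that were lower in CPM included survival and homing receptors. Cycling cells held more UMIs in all, so a lower CPM need not mean fewer UMIs per cell. Il7r was seen in 50.9%, 46.3%, 40.2% and 46.5% of cycling T cells against 46.2%, 56.3%, 45.2% and 53.6% of non-cycling ones. For Bcl2 the shares were 50%, 54.7%, 52.0% and 52.8% against 49.7%, 59.9%, 55.3% and 55.9%. Il7r, the receptor for the survival cytokine IL-7, was at 120, 135, 93.8 and 125 CPM in cycling T cells against 311, 380, 284 and 332 in non-cycling ones, ratios of 0.386, 0.356, 0.330 and 0.375. The anti-apoptotic gene Bcl2 stood at ratios of 0.424, 0.388, 0.363 and 0.372, and Ccr7, the receptor that guides naive T cells to lymph nodes, at 0.359, 0.484, 0.411 and 0.388. The other 2 of the 5 genes were Klrb1c, the NK1.1 receptor, at 0.467, 0.466, 0.328 and 0.325, and Crim1 at 0.412 to 0.473. Of the 11 comparable genes of the naive and recirculating list (14 listed), 3 were lower in every library. No gene was 2-fold apart in every library among 17 of the 22 effector genes, 6 of the 14 checkpoint genes or all 15 stress genes compared. Ccnd2, the early G1 cyclin, was at 210, 171, 226 and 166 CPM against 524, 361, 513 and 307.

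The second comparison asked which T cells were cycling in each library. Each cycling cell was placed by its UMIs of 5 markers, and cells with other combinations were set apart as carrying several. A Cd8b1-positive or Cd4-positive cell had none of the other 4 markers. A Foxp3-positive cell had no Cd8b1, Trdc or Zbtb16 and a Zbtb16-positive cell no Cd8b1, Trdc or Foxp3, but both could carry Cd4, and a Trdc-positive cell could carry Zbtb16. Cd4 was seen in 8 of 26, 1 of 5, 8 of 20 and 1 of 2 cycling Zbtb16-positive cells. A class can rest on 1 UMI. In the 12-week chow library the Zbtb16-positive class was the largest, with 26 of 110 cells (23.6%, 16.1 to 32.7), ahead of Cd8b1 with 17 (15.5%, 9.27 to 23.6) and Cd4 with 16 (14.5%), and these intervals overlapped. In the 12-week MASH library Cd8b1 came first with 26 of 95 (27.4%, 18.7 to 37.5) and Cd4 next with 20 (21.1%), while Zbtb16 had 5 (5.26%, 1.73 to 11.9).

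At 24 weeks the same 2 classes led in both diets. In chow, Cd8b1 held 29 of 127 cycling cells (22.8%, 15.9 to 31.1), Cd4 26 (20.5%) and Zbtb16 20 (15.7%, 9.89 to 23.3). In MASH, Cd8b1 held 43 of 142 (30.3%, 22.9 to 38.5), Cd4 28 (19.7%) and Zbtb16 2 (1.41%, 0.171 to 5.0). Cells that carried another type's markers were 5 of 17, 5 of 26, 8 of 29 and 20 of 43 Cd8b1-positive cycling cells. For Cd4 they were 2 of 16, 7 of 20, 9 of 26 and 10 of 28, and for Zbtb16 6 of 26, 3 of 5, 5 of 20 and 0 of 2. Class values here include these cells. The Foxp3-positive class was small, with 2, 4, 2 and 9 cells in the 4 libraries (1.82%, 4.21%, 1.57% and 6.34%), and so were Trdc-positive cells, with 5, 3, 4 and 5. No marker was seen in 38, 31, 39 and 41 cells, and 6, 6, 7 and 14 carried markers of several classes, among them 4, 3, 5 and 7 with both Cd4 and Cd8b1.

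The clearest difference in makeup between diets was in the Zbtb16-positive class. Its share of cycling T cells in MASH was 0.223 of that in chow at 12 weeks (0.0668 to 0.589) and 0.0894 at 24 weeks (0.0101 to 0.368). The same class was also a smaller part of non-cycling T cells in MASH, 4.55% against 14.8% at 12 weeks and 2.52% against 10.1% at 24 weeks, ratios of 0.307 and 0.248. The 24-week chow library was uneven here too. Among its cells with a single hashtag, Zbtb16-positive cells were 4.37% of non-cycling T cells with hashtags 1 to 4 and 15.3% with hashtags 5 to 8, so the 24-week ratio was 0.576 (0.425 to 0.783) or 0.165 (0.130 to 0.208). In cycling T cells they were 7 of 54 and 5 of 29, ratios of 0.109 (0.0110 to 0.571) and 0.0817 (0.00778 to 0.499). With cycling cells and markers both called after thinning to 1000 UMIs, the class held 2 of 37 cycling cells in chow and 2 of 28 in MASH at 12 weeks, and 2 of 41 and 0 of 33 at 24 weeks. After thinning to 2000 it held 3 of 69 and 0 of 52, and 3 of 70 and 1 of 65, so too few cells were left at equal depth to show a difference in cycling T cells. The Cd8b1-positive share was 1.77 times the chow share at 12 weeks (0.925 to 3.48) and 1.33 times at 24 weeks (0.809 to 2.20), with both intervals including 1. In non-cycling T cells it was 2.55 and 1.65 times, and the 24-week value was 1.10 (0.980 to 1.23) against chow hashtags 1 to 4 and 3.24 (2.75 to 3.83) against hashtags 5 to 8. For these 2 classes the values in all cycling T cells lay on the same side of chow as those in non-cycling T cells.

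**Figure D3:**
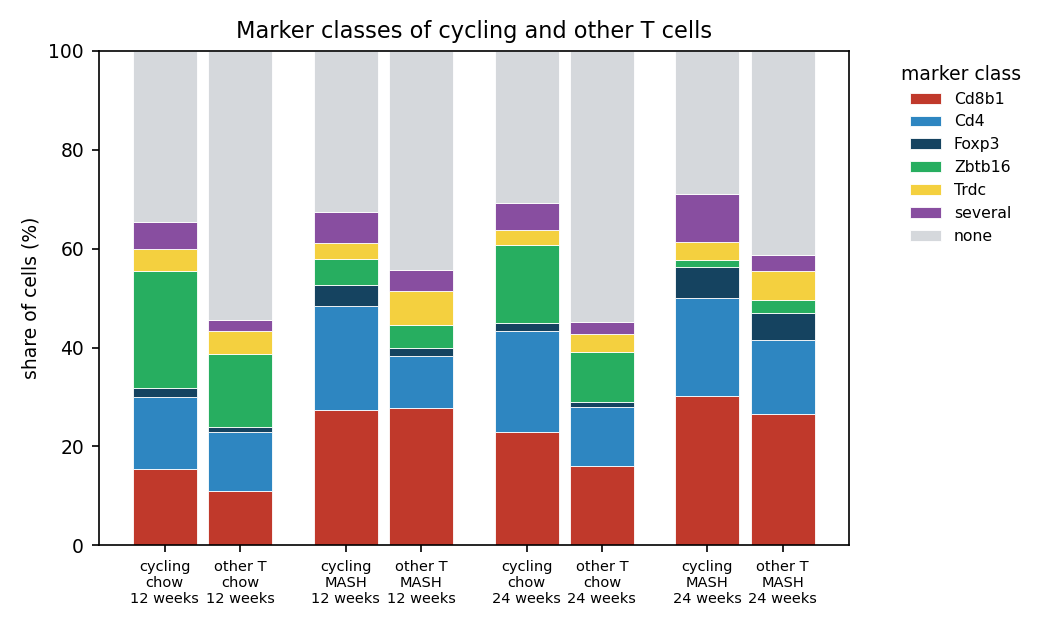
Stacked shares (%, y axis) of the marker classes in cycling T cells and in T cells with no Mki67 or Top2a UMI, side by side for each library (x axis). The Zbtb16 part shrinks from 23.6% and 15.7% in chow to 5.26% and 1.41% in MASH among cycling cells, and fewer cycling than other T cells have no marker.

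Cells with no marker were rarer among cycling T cells (34.5%, 32.6%, 30.7% and 28.9%) than among non-cycling ones (54.5%, 44.4%, 54.9% and 41.2%), and cycling cells were deeper. Among cells placed in 1 class the Cd8b1-positive and Zbtb16-positive shares were close. Cd8b1-positive cells were 25.8%, 44.8%, 35.8% and 49.4% of placed cycling cells and 25.2%, 54.0%, 37.7% and 48.0% of placed non-cycling cells. Zbtb16-positive cells were 39.4%, 8.62%, 24.7% and 2.30% against 34.2%, 8.84%, 23.8% and 4.55%. For both classes the cycling interval contained the non-cycling share in all 4 libraries. Cd4-positive cells were 24.2%, 34.5%, 32.1% and 32.2% of placed cycling cells against 27.9%, 20.3%, 27.9% and 26.8%. In 12-week MASH their cycling interval (22.5 to 48.1) lay above the non-cycling share.

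Marker UMIs were also counted in cells that should lack them. In B cells a Cd8b1 UMI was seen in 1.27%, 1.99%, 1.19% and 1.35% of cells and a Zbtb16 UMI in 0.566%, 0.517%, 0.320% and 0.613%, at the depths given above. In endothelial cells (at least 2 Stab2 UMIs, no Cd3 UMI; median depths 1841.5, 3363, 2380 and 4437.5) Zbtb16 was seen in 1.30%, 2.62%, 0.882% and 2.87%. A Cd8b1 UMI was seen in 20%, 32.6%, 27.6% and 39.4% of cycling T cells and a Zbtb16 UMI in 24.5%, 6.32%, 18.1% and 2.11%. The Zbtb16 share of cycling T cells in 24-week MASH thus lay within the interval of endothelial cells in the same library (1.32 to 5.37). It lay above the share in its B cells, and both kinds of cell were shallower than cycling T cells. Whether these Zbtb16 UMIs are background was not tested. The 24-week Trdc and Foxp3 shares in B cells were 0.133% to 0.460%, against 2.36% to 11.3% in cycling T cells.

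Thinning changed the order in 12-week chow. At 2000 UMIs a cell, Cd8b1 was seen in 14.4%, 21.3%, 18.4% and 20.4% of cycling T cells and in 11.1%, 25.1%, 15.1% and 23.9% of non-cycling ones. Zbtb16 was seen in 7.69%, 1.12%, 5.60% and 0.704% against 12.5%, 2.46%, 8.05% and 2.0%. The first place of the Zbtb16-positive class in 12-week chow therefore did not hold at equal depth, where Cd8b1 was seen more often in all 4 libraries. The thinned Zbtb16 shares of both MASH libraries rested on 1 cell each.

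A class can lead because it is common or because more of its cells divide, so the cycling share was also taken within each class. Cd8b1-positive T cells cycled at 3.77% (2.21 to 5.97), 2.83% (1.86 to 4.12), 3.15% (2.12 to 4.49) and 3.78% (2.75 to 5.06) in the 4 libraries. The Cd4-positive class stood at 3.26% (1.87 to 5.24), 5.68% (3.50 to 8.64), 3.77% (2.48 to 5.47) and 4.27% (2.85 to 6.11). Zbtb16-positive cells stood at 4.23%, 3.29%, 3.45% and 1.96%, Foxp3-positive cells at 5.71%, 6.90%, 3.45% and 3.69% and Trdc-positive cells at 2.62%, 1.42%, 1.99% and 2.06%. Within each library the intervals of these 5 classes overlapped. Overlap of separate intervals does not show that shares are equal, and no ratio between classes was taken, so their order was not tested.

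The cycling share within a class also did not separate the diets. The MASH to chow ratio for Cd8b1-positive cells was 0.751 at 12 weeks (0.392 to 1.47) and 1.20 at 24 weeks (0.733 to 2.0). For Cd4-positive cells it was 1.74 (0.858 to 3.60) and 1.13 (0.640 to 2.01), and for Zbtb16-positive cells 0.777 (0.233 to 2.06) and 0.569 (0.0644 to 2.34). All of these intervals included 1, as did those of the Foxp3 and Trdc classes at both weeks. Except for Cd8b1-positive cells at 24 weeks, they are wide enough to hold a 2-fold difference in 1 or both directions. Cells with none of the 5 markers were the exception at 24 weeks, with 2.43% against 1.27% and a ratio of 1.92 (1.21 to 3.05). At 2000 UMIs a cell this ratio was 1.21 (0.769 to 1.90), so it did not hold at equal depth.

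**Figure D4:**
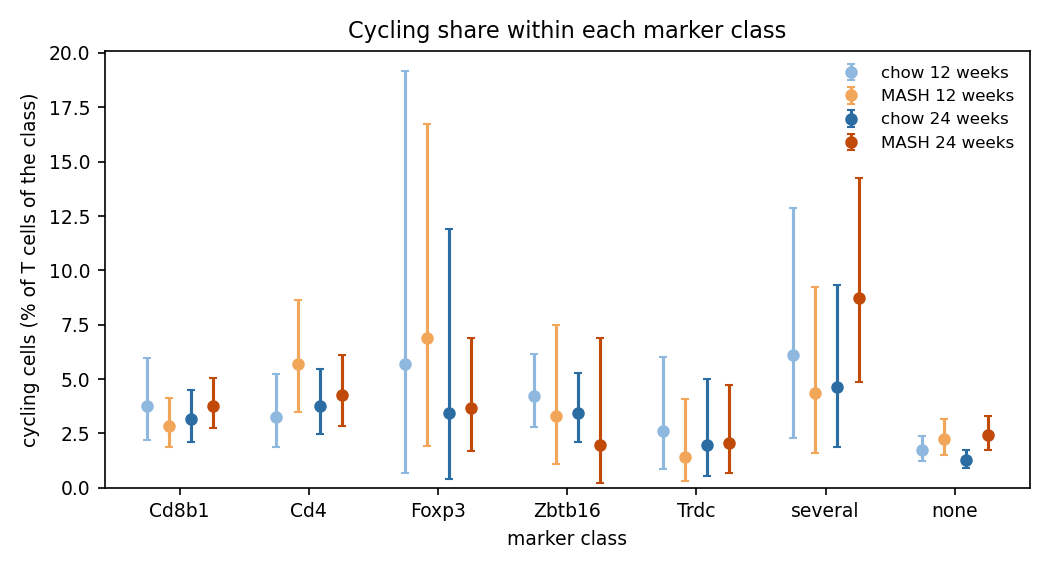
Cycling cells as a share (%, y axis) of the T cells of each marker class (x axis), in the 4 libraries, with exact 95% counting intervals. In the 5 marker classes the values lie between 1.42% and 6.90% and the intervals of the libraries overlap within each class.

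Cycling and non-cycling cells were also compared within a class. In Cd8b1-positive cells Il7r was at 127, 92.9, 114 and 120 CPM in cycling cells against 368, 361, 306 and 290 in non-cycling ones. Tcf7, a transcription factor of naive and memory T cells, was at 152, 106, 117 and 72.9 CPM against 321, 256, 249 and 227. Il7r was seen in 52.9%, 38.5%, 48.3% and 44.2% of the cycling cells against 58.5%, 58.2%, 52.9% and 49.2% of the others. For Tcf7 the shares were 58.8%, 57.7%, 41.4% and 51.2% against 56.8%, 57.2%, 49.1% and 51.7%. In CPM both genes were lower in cycling Cd8b1-positive cells in every library, with intervals below 1. The cytotoxic protease gene Gzmb was higher there in every library, 361, 329, 363 and 142 CPM against 153, 221, 219 and 102, ratios of 2.35 (1.73 to 3.16), 1.49 (1.17 to 1.88), 1.66 (1.33 to 2.05) and 1.40 (1.09 to 1.78). These values rested on 8, 18, 12 and 14 cells with a Gzmb UMI. Other effector genes of the same cells did not share this direction. Ccl5, a chemokine of effector T cells, stood at ratios of 0.485, 0.930, 0.638 and 0.466 with every interval below 1, and Ifng, the cytokine of type 1 responses, at 0.753 (0.458 to 1.18), 0.724, 0.606 and 0.769. Gzma, another granzyme, was at 1.12, 0.185, 1.94 and 2.34.

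In Cd4-positive cells Il7r was at 139, 157, 41.4 and 79.3 CPM in cycling cells against 341, 475, 311 and 378. In Zbtb16-positive cells it was at 97.0, 33.0, 101 and 145 CPM against 242, 353, 260 and 362, the MASH values coming from 5 and 2 cells. The Il7r level of cycling cells was therefore lower in these 3 classes, with intervals below 1 except in Zbtb16-positive cells of 24-week MASH (0.108 to 1.04). In Trdc-positive cells, 3 to 5 cycling cells a library, Il7r was at 419, 0, 479 and 86.9 CPM against 408, 512, 322 and 553, and was thus not lower in the chow libraries. Ifng was at 175 and 432 CPM in cycling Zbtb16-positive cells of 12- and 24-week chow against 360 and 629 in non-cycling ones.

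The third comparison set MASH against chow within cycling T cells, gene by gene. At 12 weeks 470 of 8003 genes (5.87%) were at least 2-fold higher in MASH and 356 (4.45%) lower. At 24 weeks 788 of 9353 (8.43%) were higher and 208 (2.22%) lower. In non-cycling T cells the corresponding shares were 6.43% and 3.61% at 12 weeks and 9.73% and 3.20% at 24 weeks. At both weeks 150 genes of 7863 (1.91%) were higher and 29 (0.369%) lower. These counts changed with the cells that carried other cells' markers. Of the 150 genes, 42 had over 50% of their UMIs in 1 MASH cell, and without the carrying cells 25 could still be compared and 8 were still 2-fold higher. Of the 29, 16 could still be compared and 7 were still lower.

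The genes that the ranking put first as higher in MASH were of this kind. Ccn1, a matrix-associated growth factor gene, had 0 UMIs in both chow libraries and 27 and 39 UMIs in 2 and 7 MASH cells, and is at least 9.34-fold higher at 12 weeks and at least 9.54-fold higher at 24 weeks against a floor of 3 UMIs per library. Ltf, a neutrophil granule gene, had 79 UMIs in 2 cells and 409 in 3 cells. Hspb1, a small heat shock protein gene, had 287 and 59 UMIs in 9 and 10 MASH cells against 1 in each chow library, and Sod3 and Cryab were similar. The neutrophil list as a whole summed to 22.9, 10972, 3586 and 8249.8 CPM in cycling T cells, with 7 of its 8 members at 0 in 12-week chow, and a single cell held 71.8%, 95.2% and 36.7% of the sums in 12-week MASH, 24-week chow and 24-week MASH.

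Among the genes that the ranking named as lower in MASH, Zbtb16 came first. It had 41 UMIs in 12-week chow, 8 in 12-week MASH, 39 in 24-week chow and 3 in 24-week MASH, which is 42.8, 8.66, 32.7 and 1.84 CPM. The MASH level was 0.202 of the chow level at 12 weeks (0.0820 to 0.437) and 0.0564 of it at 24 weeks (0.0112 to 0.178). Both chow libraries lay above both MASH libraries, and without the carrying cells the ratios were 0.193 and 0.0878. Ccr9, a gut-homing chemokine receptor, was at 37.6, 10.8, 27.6 and 11.1 CPM, ratios of 0.288 (0.128 to 0.593) and 0.400 (0.212 to 0.732). Its 24-week direction turned with the chow cells used, at 1.68 (0.489 to 8.88) against hashtags 1 to 4 and 0.319 (0.140 to 0.774) against hashtags 5 to 8. Ada, adenosine deaminase, was at 27.1, 9.74, 24.3 and 6.14 CPM, ratios of 0.359 and 0.253. Crybg2 and Adgrg3 were the others, and Adgrg3 was carried mostly by the cells with other markers.

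Il4, a cytokine that liver NKT cells make readily, was also lower in MASH, with 26, 11, 53 and 1 UMIs (27.1, 11.9, 44.4 and 0.614 CPM). The ratios were 0.439 (0.196 to 0.919) and 0.0138 (0.000344 to 0.0805). In non-cycling T cells the Il4 ratios were 0.381 and 0.147, and those of Zbtb16 0.229 and 0.223. Cxcr6, a receptor of liver-resident lymphocytes, was at 198, 68.2, 177 and 147 CPM, with ratios of 0.344 (0.254 to 0.460) and 0.831 (0.688 to 1.01). Zfp683 (Hobit), a residence transcription factor, was at 39.6, 17.3, 45.2 and 20.9 CPM, ratios of 0.437 and 0.462, and the 24-week ratio was 0.297 (0.178 to 0.497) against chow hashtags 1 to 4 and 1.51 (0.538 to 5.85) against hashtags 5 to 8. Of the 12 innate-like genes that could be compared (15 listed), 0 were 2-fold higher and 2 lower at 12 weeks, and 1 higher and 3 lower at 24 weeks, where 5.87% and 4.45% of all genes were higher and lower at 12 weeks and 8.43% and 2.22% at 24 weeks. The medians on the log2 scale were -0.25 and -0.45, against -0.06 and 0.00 over all genes.

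Several checkpoint genes were higher in MASH. Of 11 checkpoint genes compared at 12 weeks (14 listed), 5 were at least 2-fold higher and 0 lower, with a median log2 ratio of 0.72, and at 24 weeks 3 of 13 were higher and 0 lower, with a median of 0.34. Of all genes 5.87% and 8.43% were higher. Non-cycling T cells shared this direction. There 5 of 14 checkpoint genes were higher and 0 lower at 12 weeks, and 7 were higher and 1 lower at 24 weeks. The medians were 0.73 and 1.00, and 6.43% and 9.73% of all genes were higher. Tigit, an inhibitory receptor, was at 29.2, 62.8, 18.4 and 48.5 CPM, with ratios of 2.15 (1.35 to 3.50) and 2.63 (1.63 to 4.44). Tox, a transcription factor of chronically stimulated T cells, was at 26.1, 56.3, 41.9 and 59.0 CPM, ratios of 2.16 (1.32 to 3.63) and 1.41 (0.991 to 2.02). Ctla4 was at 41.7, 67.1, 37.7 and 72.5 CPM, ratios of 1.61 (1.06 to 2.46) and 1.92 (1.35 to 2.78). For Tigit and Ctla4 both MASH libraries lay above both chow libraries, and without the carrying cells Tigit, Tox and Ctla4 were 2.33, 2.85 and 2.03 times higher at 12 weeks and 3.75, 2.44 and 2.23 times at 24 weeks. Against 24-week chow cells with hashtags 1 to 4 alone the ratios of Tigit, Tox and Ctla4 were 1.70 (0.937 to 3.33), 1.22 (0.761 to 2.03) and 1.37 (0.880 to 2.23), with intervals that included 1, and against hashtags 5 to 8 they were 2.34, 1.55 and 2.62. Pdcd1, which encodes the receptor PD-1, was at 7.30, 15.1, 22.6 and 24.6 CPM, with ratios of 2.07 (0.784 to 6.07) and 1.09 (0.651 to 1.84), against 3.54 and 7.77 in non-cycling T cells.

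Among the regulatory T cell genes, 2 of 9 compared (16 listed) were 2-fold higher and 1 lower at 12 weeks, and 6 of 12 were higher and 0 lower at 24 weeks, with medians of 0.59 and 0.94. Of all genes 5.87% were higher and 4.45% lower at 12 weeks, and 8.43% and 2.22% at 24 weeks. In non-cycling T cells 6 of 16 regulatory genes were higher and 1 lower at 12 weeks, and 9 were higher and 0 lower at 24 weeks. The medians there were 0.82 and 1.54, where 6.43% and 9.73% of all genes were higher and 3.61% and 3.20% lower. Foxp3 had 3, 16, 6 and 47 UMIs in 2, 5, 3 and 16 cells, and ratios of 5.53 (1.58 to 29.6) and 5.75 (2.45 to 16.5). Ikzf2 (Helios) was at 56.3, 99.6, 60.3 and 105 CPM, ratios of 1.77 (1.25 to 2.52) and 1.74 (1.32 to 2.33). Against chow hashtags 1 to 4 the 24-week ratios of Foxp3 and Ikzf2 were 3.28 (1.20 to 12.5) and 1.36 (0.944 to 2.02). Tnfrsf4 (OX40) was at 8.34, 17.3, 13.4 and 44.2 CPM, ratios of 2.07 (0.838 to 5.60) and 3.30 (1.90 to 6.08), the latter 2.87 (1.32 to 7.40) against chow hashtags 1 to 4 and 12.8 (2.22 to 512) against hashtags 5 to 8. The Foxp3-positive class itself was 4.21% against 1.82% of cycling T cells at 12 weeks and 6.34% against 1.57% at 24 weeks, with intervals of the ratio that included 1. Il2ra, the IL-2 receptor alpha chain, was lower in MASH at 12 weeks, at a ratio of 0.415 (0.193 to 0.835), and stood at 1.53 (0.930 to 2.57) at 24 weeks.

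Effector genes gave different counts at the 2 weeks, a difference that was not tested. At 12 weeks 5 of 21 (22 listed) were 2-fold higher in MASH and 0 lower, and at 24 weeks 0 of 22 were higher and 1 lower. The shares of all genes were 5.87% and 4.45% at 12 weeks and 8.43% and 2.22% at 24 weeks. In non-cycling T cells 5 of 22 effector genes were higher at both weeks, with 0 and 1 lower. There 6.43% and 9.73% of all genes were higher and 3.61% and 3.20% lower. Gzmk, a granzyme of memory-like CD8 T cells, had 6 UMIs in 12-week chow, 59 in 12-week MASH, 72 in 24-week chow and 121 in 24-week MASH (6.26, 63.8, 60.3 and 74.3 CPM), so the 12-week chow library stood alone as low. Its ratios were 10.2 (4.42 to 28.9) and 1.23 (0.914 to 1.67). Ccl5 was at 1515, 4004, 3342 and 3032 CPM, ratios of 2.64 (2.49 to 2.81) and 0.907 (0.870 to 0.946), and without the carrying cells 3.76 and 1.37. Its 24-week ratio was 1.03 (0.965 to 1.09) against chow hashtags 1 to 4 and 1.02 (0.951 to 1.10) against hashtags 5 to 8. Gzma was at 316, 311, 958 and 351 CPM, and 1 cell held 50.8% of its UMIs in 12-week chow and 58.2% in 12-week MASH, so its levels rest on few cells. Its ratios of 0.983 and 0.367 became 0.351 and 0.708 without the carrying cells, and the 24-week ratio was 0.353 against chow hashtags 1 to 4 and 4.61 (3.02 to 7.42) against hashtags 5 to 8.

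Klra7, a Ly49 receptor whose reads may be shared with near-identical Klra copies, was at 5.22, 85.5, 18.4 and 47.9 CPM, with ratios of 16.4 (6.74 to 51.9) and 2.60 (1.60 to 4.39), and 5.45 (2.04 to 20.5) at 24 weeks against chow hashtags 1 to 4. It is also an NK cell gene, and the 10 NK and ILC1 markers summed to 766, 1730.2, 913 and 1473 CPM in cycling T cells, against 1135, 1713, 1239 and 1874 in non-cycling ones. Their part in the Klra7 result was not tested. Gene by gene, 3 of 44 S phase genes and 4 of 50 mitosis genes were 2-fold lower in MASH at 12 weeks and none higher. At 24 weeks 6 of 45 and 0 of 50 were lower, with 0 and 1 higher. Of all genes 4.45% were lower and 5.87% higher at 12 weeks, and 2.22% and 8.43% at 24 weeks. Rrm2 was at 191, 127, 229 and 166 CPM and Birc5 at 476, 318, 414 and 348. All 17 T cell receptor and signalling genes lay within 2-fold at both weeks, as did 7177 of 8003 genes at 12 weeks and 8357 of 9353 at 24 weeks.

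**Figure D5:**
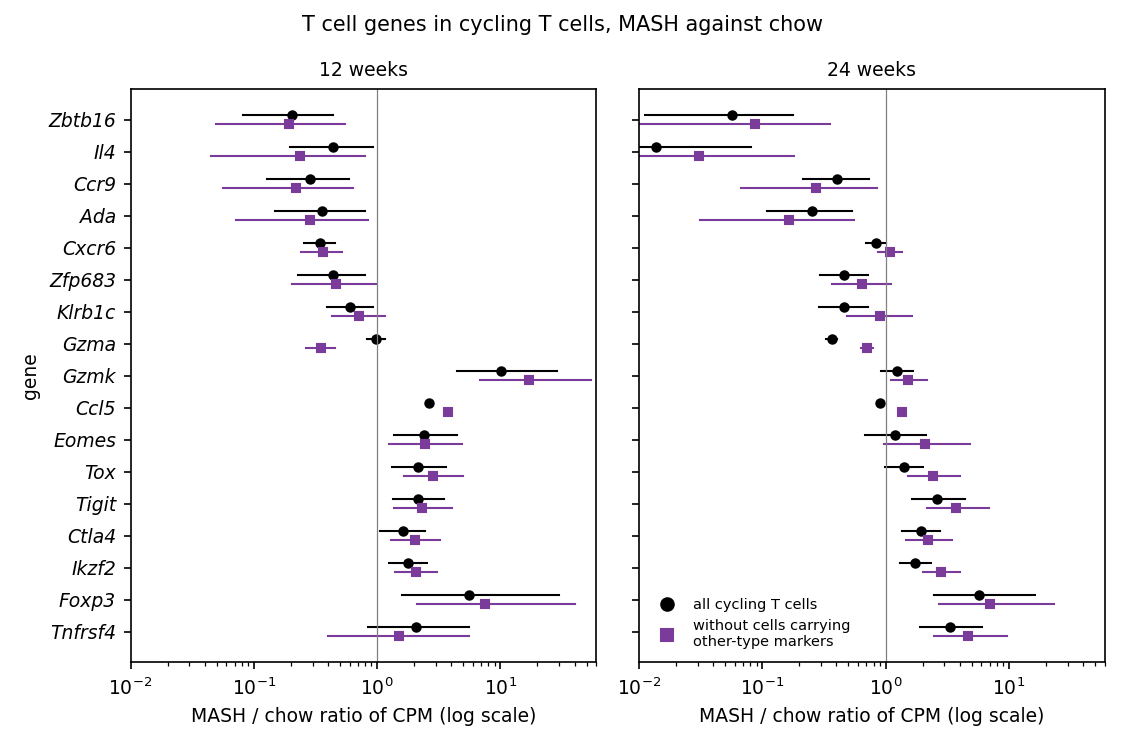
MASH to chow ratio of CPM (x axis, log scale) of named T cell genes (y axis) in cycling T cells at 12 and 24 weeks. Circles are all cycling T cells, squares those without cells carrying other cell types' markers, bars are 95% counting intervals, cut at the axis limits, and the grey line marks equal levels. The values of Zbtb16, Il4, Ccr9 and Ada lie below 1 and those of Tigit, Ctla4, Ikzf2 and Foxp3 lie above 1 in both panels and both sets. Ccr9 is in the dendritic cell list used to leave cells out, so its squares depend in part on that choice.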

How the data were processed

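The deposited matrices held raw UMI counts per gene and barcode, made with Cell Ranger 5.0.1 for 3 libraries and Cell Ranger 4 for 12-week MASH, per the file headers. Builds mm10 and GRCh38 are both listed, with no role, in the submitters' processing notes. The 12-week MASH matrix held 737280 columns that its list of 19014 barcodes did not match, so its cells were the 19091 columns with at least 500 UMIs. Cells needed at least 500 gene UMIs, 300 genes and at most 15% mitochondrial UMIs. Doublets were marked with Scrublet (scanpy 1.11.5) and kept, except in an alternative.

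UMIs were summed over cells and divided by the total to give CPM. For MASH against chow a gene needed at least 20 UMIs over both sums, and for cycling against non-cycling cells at least 20 in each sum, which limits the genes that could be lower. The threshold was 2-fold. The ratios were tried on simulated counts drawn independently for each gene. These counts leave out the grouping of UMIs within cells, so the trial does not cover genes held by few cells. Genes are named by list (the most abundant and the most changed members), by the highest and lowest ratios in the same direction at both weeks whose intervals excluded 1, and by the 10 highest and 10 lowest ratios of cycling to non-cycling cells. Some genes that these rules name were left out of the text, among them Kdm5b, Hcst, Btg1, Satb1 and Socs1 of the 10 lowest. Cells, lists and rules were chosen with earlier results of these data known. Python 3.11.15, numpy 2.4.6, pandas 2.3.3, scipy 1.17.1, scikit-learn 1.9.0 and matplotlib 3.10.9 were used.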

Additional observations from a re-analysis of the deposited data

Results flagged for a closer look

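Genes of the fixed lists were singled out when MASH was at least 1.5-fold above chow at 1 week and at least 1.5-fold below it at the other. The difference between the weeks was not tested, because each group had 1 library. Trbc2, the constant segment of the T cell receptor beta chain, was 1.65 times the chow level at 12 weeks and 0.582 times at 24 weeks (205, 340, 450 and 262 CPM in 12-week chow, 12-week MASH, 24-week chow and 24-week MASH). Without the cells carrying other markers the ratios were 2.06 and 0.776. Trbc2 has a near-identical copy, Trbc1, with which its reads may be shared. Ccl4, an inflammatory chemokine, was 2.19 times the chow level at 12 weeks and 0.586 times at 24 weeks (371, 814, 773 and 453 CPM). A single cell held 24.4% of its UMIs in 12-week chow and 31.6% in 12-week MASH, and without the carrying cells the ratios were 1.64 and 0.745. The 12-week ratio was 0.967 with a threshold of 3 Mki67 and Top2a UMIs, and the 24-week ratio 1.12 against chow hashtags 5 to 8.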

How the results depend on the processing

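No paired analysis was possible because each group had 1 library. Alternatives with a threshold of 4 UMIs, with at least 20 phase-list UMIs as well, and without the cells carrying other markers were chosen after seeing the data. The MASH to chow ratio of the cycling share at 12 weeks (1.09) was 2.03 with a threshold of 1 UMI, 0.778 with 3, 0.727 with 4 and 0.817 with phase-list UMIs. At 24 weeks (1.5) it was 1.08 and 1.14 with cells thinned to 1000 and 2000 UMIs and 2.50 with hashtags 5 to 8 of the chow library. Thinning to 1000 UMIs gave Cd8b1-positive shares of cycling cells of 5.41% (12-week chow), 14.3% (12-week MASH) and 15.2% (24-week MASH), and thinning to 2000 gave 14.3% in 24-week chow. Zbtb16-positive shares were 5.41% and 4.35% in 12-week chow and 4.88% and 4.29% in 24-week chow at 1000 and 2000 UMIs, 7.14% and 0% in 12-week MASH, and 0% in 24-week MASH at 1000.

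The 470 genes higher at 12 weeks became 3066 with a minimum of 1 UMI, 194 with 50 and 194 without the carrying cells, and the 356 lower became 2055 and 114 with the 2 minimums. At 24 weeks the 788 higher became 3994 and 316 with the minimums, 1421 with hashtags 5 to 8 and 211 without the carrying cells, and the 208 lower became 1579, 88 and 352 with hashtags 5 to 8. The 219 higher and 5 lower genes of cycling cells became 48 and 1 after thinning to 2000. The cause was not tested.

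Ratios of single genes that crossed 1 were Ccl4 at 12 weeks (0.967 and 0.945 with thresholds of 3 and 4) and 24 weeks (1.12 with hashtags 5 to 8), Ccl5 at 24 weeks (1.09 without Scrublet doublets, 1.03 with hashtags 1 to 4, 1.02 with 5 to 8, 1.37 without the carrying cells), and, at 24 weeks, Ccr9 (1.68) and Klrb1c (1.15) with hashtags 1 to 4 and Gzma (4.61), Gzmb (1.72) and Zfp683 (1.51) with 5 to 8. Size factors moved the median of all genes by -0.01 and 0.01 on the log2 scale. Depth limits the rare classes most, since the Foxp3-positive class held 2 to 9 cycling cells a library.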

Other observations

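Cycling T cells used many T cell receptor beta segments. Of cycling cells with a Trbv UMI, Trbv13-2 was the most frequent segment in 33 of 92 (35.9%) in 12-week chow, 18 of 79 (22.8%) in 12-week MASH, 44 of 110 (40.0%) in 24-week chow and 16 of 122 (13.1%) in 24-week MASH. In non-cycling T cells its shares were 38.8%, 26.6%, 38.7% and 18.9%. Between 16 and 19 Trbv segments were seen among the cycling cells of each library. Trav11 or Trav11d, the alpha segment of invariant NKT cells, was seen in 0, 1, 3 and 0 cycling cells. Alpha segments were seldom captured, with any Trav UMI in 32 of 110, 36 of 95, 55 of 127 and 81 of 142 cycling cells. Even in non-cycling Zbtb16-positive cells Trav11 or Trav11d was seen in only 1.24%, 1.55%, 1.29% and 1.04%. The low counts therefore do not show that invariant NKT cells were absent.

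Without the cells carrying other markers, a ranking by the same rule named 17 genes higher and 13 lower in MASH at both weeks, chosen after the data were seen. The higher ones included Dapl1, Il6st, Jaml, Klra1, Klra7, Tox, Tigit, Ikzf2 and Ctla4, and also Lyz2, a myeloid gene with 20 and 19 UMIs in the MASH libraries. Jaml, an adhesion molecule, was at 12.1, 40.7, 20.4 and 59.6 CPM. The lower ones included Zbtb16, Il4, Ada, Ckb and Dtx1, and also Ccr9, which is in the dendritic cell list used to leave cells out. Ckb, the brain-type creatine kinase, was at 124, 43.0, 84.2 and 28.3 CPM, and Dtx1, a Notch pathway gene, at 93.9, 40.7, 96.4 and 25.3.

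The single hashtags differed in their cycling share of T cells, from 1.64% to 4.10% in chow and 2.32% to 3.35% in MASH at 12 weeks, and from 0.668% to 3.70% and 1.08% to 3.73% at 24 weeks. In 24-week chow, Cd8b1-positive cells were 20.9% to 26.5% of non-cycling T cells with hashtags 1 to 4 and 7.44% to 9.0% with hashtags 5 to 8, and Zbtb16-positive cells 3.29% to 5.43% and 14.4% to 15.9%.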
